A study of Mus musculus with 6 samples.

Results

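The crystallins are the abundant soluble proteins of the eye lens, and RNA of several of them is also read in retina. This account covers 10 crystallin genes on 6 Affymetrix mouse genome arrays of adult retina: the alpha crystallins Cryaa and Cryab, the beta crystallins Cryba1, Cryba2, Cryba4, Crybb1, Crybb2 and Crybb3, and the gamma crystallins Crygd and Crygs. They are 10 of the 18193 genes that had a probe set of their own, and were chosen by name, as crystallins whose symbol stands alone on at least 1 probe set. Each transcript is read by a set of short DNA probes, a probe set, and the 10 genes had 12 of the 45037 probe sets, 3 for Cryab and 1 for each other gene.

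The arrays read RNA from the retinas of 3 adult Trim9 KO mice, here called KO 1 to KO 3, and 3 adult WT littermates, WT 1 to WT 3, with 1 array for each sample. Trim9, a ubiquitin ligase of the tripartite motif family, lost its exon 1 in the KO mice by Cre excision after a cross to CMV-cre, a line that recombines in most cells of the body. Strain, sex and exact age were not given in the sources used here, nor whether both eyes of a mouse were pooled, and the p-values measure only the spread between these samples. The question was whether the adult retina differs between the genotypes, and for the crystallins also which of them are read in a dissected retina at all.

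Alpha crystallins are small heat shock proteins that hold unfolded proteins in solution. Cryaa is largely a lens protein, whereas Cryab is also made in muscle, heart and the nervous system, and both have been described in retinal neurons and Müller glia. Beta and gamma crystallins share a fold of repeated Greek key motifs. Beta crystallins assemble into oligomers, gamma crystallins stay monomers, and both classes are known above all from lens fiber cells. Because the lens touches the inner eye during dissection, lens RNA can be carried into a retina sample, and lens genes other than the crystallins were therefore read on the same arrays.

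Several facts of the whole array set bear on every value. The authors had scaled each array to a trimmed mean of 1500 (2% of probe sets trimmed at each end), but the median intensity was 807, 460.5 and 252 on KO 1, 2 and 3, against 218, 675 and 318 on WT 1, 2 and 3. KO 1 had a Pearson's r of 0.466 to 0.516 with the other 5 arrays over all probe sets, while the best r of each of those 5 was 0.682 to 0.887. On WT 3 the 3′ probe set of Gapdh was 0.905 times as bright as its 5′ probe set, whereas on the other 5 arrays the ratio was 82.0 to 310.1. The same ratio of Actb was 2.83, 94.5 and 90.5 on KO 1, 2 and 3, against 20.2, 9.87 and 3.43 on WT 1, 2 and 3, and so was lowest on KO 1. All 12 of the rod markers that had a probe set of their own had a 6-array mean over the median of all probe sets, and on each array 11 or 12 of them exceeded its median. The tissue was labeled adult retina, although a treatment note in the same labels speaks of embryos, and the arrays are called adult after the tissue label. The main probe set of Trim9 read 1498, 497 and 367 on the KO arrays, against 4226, 1767 and 1667 on the WT arrays, so that no KO value reached any WT value (log2 fold change -1.81, standard error 0.99; two-sided exact permutation p = 0.1, the smallest that 3 arrays against 3 allow). Of its 3 other probe sets 1 separated in the same way and 2 overlapped, with KO 1 at 1367 above WT 3 at 923 in one and KO 1 at 1959 above WT 1 at 697 and WT 2 at 1075 in the other.

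Lens expression of crystallin genes is driven from short promoters, at which Maf, Sox, Pax6 and Prox1 proteins act. RefSeq promoter windows (GRCm38.p6, 250 bases before a transcript start and 50 after it) were used for 9 of the 10 genes, all but Cryab, and 3 motifs were searched on both strands. TGCTGA, which is part of the element that Maf proteins bind, was found in the windows of 7 of the 9 genes, and in 19.5% of 32851 windows of the same length. TATAAA, the TATA box, was found in 4 of the 9, against 13.6% of all windows. GAANNTTC, the core of the element that heat shock factors bind, was found in 0 of the 9, against 7.86% of all windows. None of the motifs overlapped another. For Crybb1, Crybb3, Cryba2 and Cryba4 the start that the windows use lies inside the longest span RefSeq gives the gene, so that other transcripts of these 4 genes begin elsewhere, and all distances are counted to the start of the window used. A match is a run of letters and says nothing about binding in these samples. The 210 bases before the start are printed for 4 genes, each read 5′ to 3′ toward the gene, with the motifs in capitals (TCAGCA is TGCTGA on the other strand). Crybb1, Cryba1 and Crygs hold both TGCTGA and a TATAAA shortly before the start, and Crybb3 had a lower mean in Trim9 KO under every alternative that gave it a value.
Crybb1, chr5:112255610-112255819, plus strand: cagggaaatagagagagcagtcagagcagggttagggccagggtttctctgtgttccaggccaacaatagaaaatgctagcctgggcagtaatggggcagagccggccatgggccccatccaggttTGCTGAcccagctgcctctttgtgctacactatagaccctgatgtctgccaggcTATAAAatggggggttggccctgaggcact
Cryba1, chr11:77725294-77725503, minus strand: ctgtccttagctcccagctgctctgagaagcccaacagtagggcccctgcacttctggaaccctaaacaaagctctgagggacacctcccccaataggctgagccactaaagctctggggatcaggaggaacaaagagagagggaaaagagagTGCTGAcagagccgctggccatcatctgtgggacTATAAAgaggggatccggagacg
Crygs, chr16:22811411-22811620, minus strand: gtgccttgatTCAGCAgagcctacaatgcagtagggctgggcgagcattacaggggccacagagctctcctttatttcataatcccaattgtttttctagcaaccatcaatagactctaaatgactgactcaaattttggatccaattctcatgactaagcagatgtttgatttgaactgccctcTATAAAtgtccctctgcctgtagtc
Crybb3, chr5:113081585-113081794, minus strand: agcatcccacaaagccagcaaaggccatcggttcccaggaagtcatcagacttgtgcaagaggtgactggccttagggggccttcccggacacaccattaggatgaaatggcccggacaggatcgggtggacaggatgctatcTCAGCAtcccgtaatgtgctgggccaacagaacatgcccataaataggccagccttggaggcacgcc
In Crybb1 the first base of TGCTGA lies 84 bases before the start and that of TATAAA 30 bases before it. In Cryba1 these distances are 57 and 23 bases, and in Crygs 200 and 25 bases. Crybb3 has its motif 67 bases before the start. Cryaa has TGCTGA 108 bases before the start, and Cryba4 has it at 182, 135 and 77 bases. Cryba2 has TGCTGA 149 bases before the start. Its TATAAA begins only 3 bases before the start and runs across it.

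Cryab was the only crystallin of the 10 whose mean exceeded the median over all probe sets, while the other 9 were dim on most arrays. Its main probe set, the brightest of 3 by the mean over the 6 arrays, read 99708, 40209 and 24634 on KO 1, 2 and 3, against 20755, 43846 and 4744 on WT 1, 2 and 3. WT 3 was low beside all others and KO 1 was high, and WT 2 lay above KO 2 and KO 3, so the genotypes overlapped. The mean log2(intensity + 16) was 15.50 ± 1.02 in Trim9 KO and 13.99 ± 1.63 in WT retinas (SD, n = 3 each). The log2 fold change was thus 1.50 with a 95% interval of -0.93 to 3.94. Limma's test did not pass the threshold of 0.05 (adjusted p = 0.999). The two-sided exact permutation test gave p = 0.3, and with 3 arrays against 3 it cannot fall under 0.1. In whole retina, more RNA per cell and more cells of a kind cannot be told apart. Without WT 3 the log2 fold change was 0.62, and without KO 1 it was 0.95.

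Percentiles within an array describe how bright a probe set was on that array, and since probe sets differ in how well they hybridize, they do not rank genes by RNA amount. By this measure Cryab was at the 99.6th, 98.4th and 97.4th percentile on KO 1, 2 and 3, against the 96.8th, 99.2nd and 89.5th on WT 1, 2 and 3. WT 3 was the 1 array that held it under the 90th percentile. Relative to the array median, Cryab stood 6.92, 6.40 and 6.52 log2 units higher on the KO arrays, against 6.47, 5.99 and 3.83 on the WT arrays. WT 3, the array where Cryab stood nearest to the median, is also the only array where the 3′ probe set of Gapdh was no brighter than its 5′ probe set. On the other arrays it was 82.0 to 310.1 times as bright. The 3′ to 5′ ratio of Actb was lowest on KO 1, where Cryab was highest. The part of these ratios in the Cryab values was not tested.

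**Figure D1:**
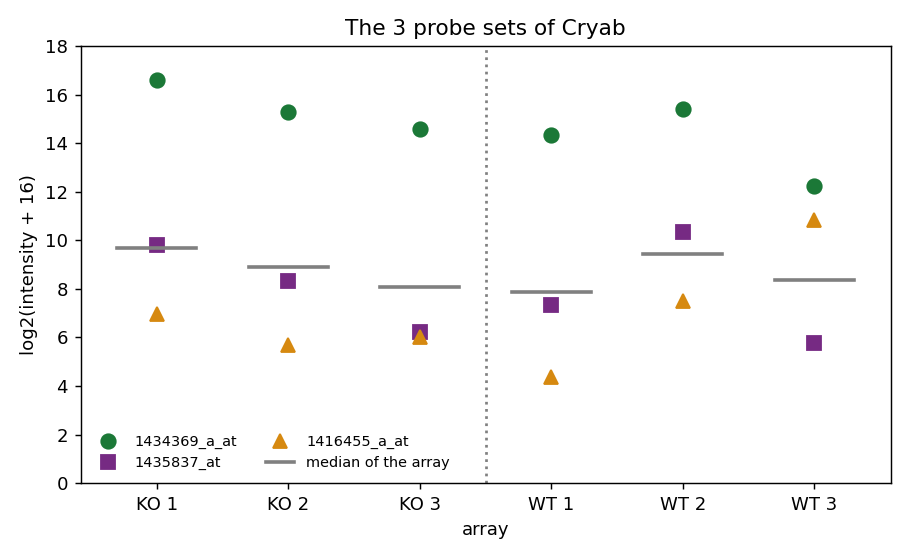
Log2(intensity + 16) of the 3 probe sets of Cryab (symbols) on each array, KO arrays left of WT arrays, with a bar at the median intensity of the array on the same scale. The main probe set (circles) lies far over the median on every array, and the other probe sets lie near or under it, apart from 1416455_a_at on WT 3 (10.85).

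The other probe sets of Cryab followed the main one unequally. Probe set 1435837_at read 878, 308 and 58.8 on the KO arrays, against 144, 1289.85 and 38.6 on the WT arrays. Its highest value was on WT 2, the next on KO 1 and the lowest on WT 3, which was also lowest by the main probe set. The log2 fold change of 1435837_at was 0.31 (standard error 1.35). Probe set 1416455_a_at read 108, 35.6 and 49.1 on the KO arrays, against 4.96, 167 and 1823 on the WT arrays. This probe set was highest on WT 3, the array where the main probe set was lowest, and its log2 fold change was -1.36 (standard error 1.44; two-sided exact permutation p = 0.6). With all 3 probe sets averaged, the log2 fold change of Cryab was 0.15, against 1.50 from the main probe set alone.

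Cryaa, the other alpha crystallin and a chaperone of the lens, was dim on all 6 arrays. It read 87.2, 82.5 and 36.7 on KO 1, 2 and 3, against 21.9, 214 and 61.6 on WT 1, 2 and 3. The highest and the lowest value were both WT arrays and enclosed all KO values (log2 fold change -0.11, 95% interval -2.33 to 2.11; two-sided exact permutation p = 1.0). Its sign turned when either KO 3 or WT 2 was left out. Cryaa never passed the 32.2nd percentile of an array.

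**Figure D2:**
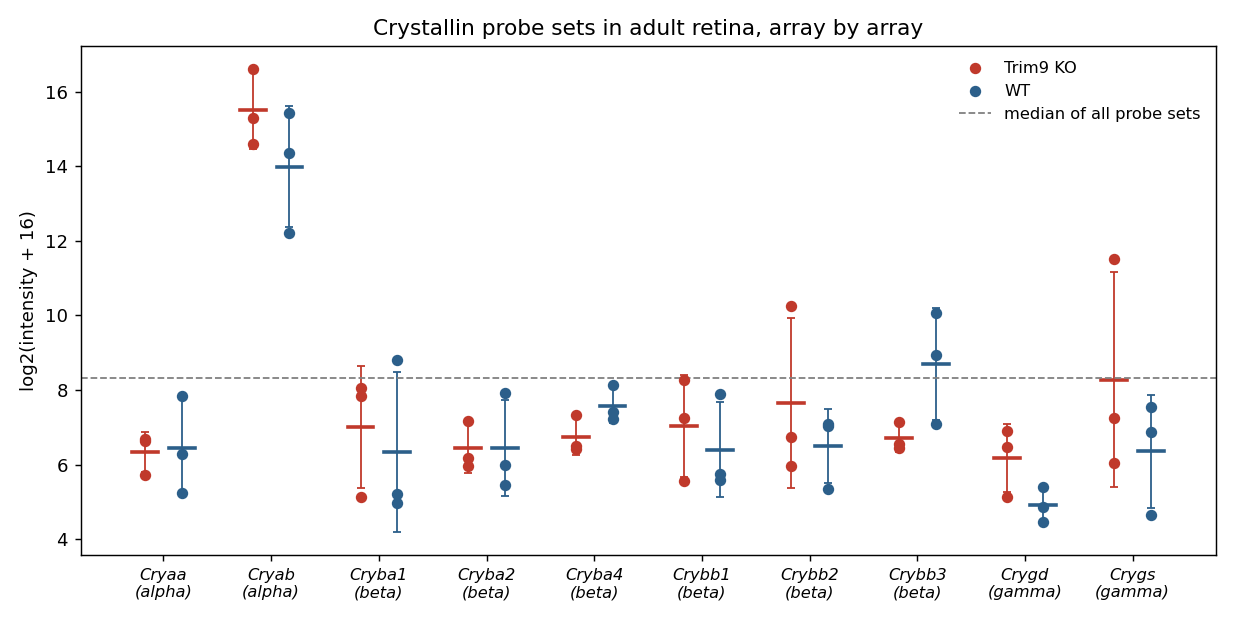
Log2(intensity + 16) of the main probe set of each crystallin, with 1 point per array, a bar at the mean and whiskers of 1 SD (n = 3 per genotype), Trim9 KO in red left of WT in blue. Only Cryab lies over the dashed median of all probe sets in both genotypes, and the points of the genotypes overlap for all 10 genes.

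The 6 beta crystallins split evenly, with 3 higher and 3 lower in Trim9 KO retinas, and their median log2 fold change was 0.31. None passed the test, and in each of the 6 the arrays of the genotypes overlapped. Crybb3, a beta crystallin of the lens fiber cell whose gene lies next to Crybb2 on chromosome 5, and Crygs had the widest differences of the 10 with all arrays (log2 fold changes -1.97 and 1.91), and which of the 10 came first depended on the setting. Crybb3 read 71.6, 125 and 78.6 on KO 1, 2 and 3, against 477, 1048 and 119 on WT 1, 2 and 3. The 3 KO values lay close together, and WT 1 and WT 2 were higher than all of them, while WT 3 fell between KO 2 and KO 3. The means were 6.72 ± 0.37 in Trim9 KO and 8.69 ± 1.50 in WT retinas (log2 scale, SD, n = 3 each), so that the log2 fold change was -1.97 with a 95% interval of -4.25 to 0.30. The two-sided exact permutation test gave p = 0.2 and limma an adjusted p = 0.999.

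The overlap of Crybb3 depended on the scale of the arrays. After quantile normalization, which gives all arrays the same distribution, its log2 values were 5.85, 6.85 and 6.91 on the KO arrays, against 9.69, 9.51 and 7.16 on the WT arrays. The 3 KO values then lay under the 3 WT values, as was so for 3.47% of the 18193 genes, and the reverse order held for 5.4% of genes. On that scale Crybb3 was also the only member with an unadjusted limma p under 0.05 (log2 fold change -2.25), which 1.41% of genes reached with a lower value in Trim9 KO, and its adjusted p was 0.991. The log2 fold change of Crybb3 was negative under each of the 14 alternatives that gave it a value, between -2.78 and -1.29. It was -2.78 without WT 3 and -1.29 without WT 2.

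Cryba4, whose gene overlaps that of Crybb1 on the opposite strand of chromosome 5, had a lower mean in Trim9 KO as well. It read 144, 74.0 and 69.7 on the KO arrays, against 155, 263 and 132 on the WT arrays. KO 1 and WT 3 alone kept the genotypes from separating (log2 fold change -0.84, 95% interval -2.85 to 1.18; two-sided exact permutation p = 0.2). After quantile normalization the KO values were 6.88, 6.24 and 6.78, against 8.21, 7.58 and 7.35 in WT, again with all KO below all WT. Cryba4 and Crybb3 were thus the only 2 members whose genotypes separated on that scale. Of the 18193 genes, 3.47% separated there with the KO values lower, and 5.4% with the KO values higher. Both members were picked out for this scale after its values had been seen. Crybb1, the neighbor of Cryba4, had another order of arrays. It read 293, 137 and 31.5 on the KO arrays, against 32.2, 221 and 37.3 on the WT arrays (log2 fold change 0.63, 95% interval -1.78 to 3.04).

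Crybb2, a major beta crystallin of the adult lens, owed its mean to 1 array. It read 91.8, 1204 and 45.9 on KO 1, 2 and 3, against 24.6, 120.3 and 116 on WT 1, 2 and 3. KO 2 stood alone, at the 75.1st percentile of its array, and the other 5 arrays lay between 24.6 and 120.3. The log2 fold change was 1.16 (95% interval -1.55 to 3.87) with KO 2 and -0.14 without it. Crybb3, its neighbor on the chromosome, had 125 on KO 2 and so did not share the high reading.

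Cryba1, which makes the beta A3 and A1 proteins from alternative start codons, varied within both genotypes. It read 213, 19.1 and 249 on the KO arrays, against 20.9, 432 and 15.6 on the WT arrays. Each genotype held high and low arrays, so the log2 fold change of 0.68 (95% interval -2.14 to 3.50) lay within the spread. Cryba2, which codes for the beta A2 protein, read 55.9, 46.4 and 128 on the KO arrays, against 27.4, 47.5 and 225 on the WT arrays, with a log2 fold change of -0.01.

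Both gamma crystallins had higher means in Trim9 KO retinas, and neither passed the test. Crygs, the gamma crystallin of the adult lens cortex, read 2931, 49.4 and 137 on KO 1, 2 and 3, against 9.17, 172 and 101 on WT 1, 2 and 3. KO 1 was at the 85.7th percentile of its array, the highest reading of any crystallin other than Cryab, and WT 1 was at the 6.60th. The ratio of the highest to the lowest array was 320 for Crygs, the widest among the main probe sets of the 10 genes. Its log2 fold change was 1.91 (95% interval -1.23 to 5.05; two-sided exact permutation p = 0.5), and 0.29 without KO 1.

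Crygd, a gamma crystallin of the lens nucleus, did not pass the 20.5th percentile of any array. It read 103, 73.5 and 19.3 on the KO arrays, against 13.2, 26.2 and 6.19 on the WT arrays. KO 1 and KO 2 lay over all WT arrays and KO 3 fell between WT 1 and WT 2 (log2 fold change 1.26, 95% interval -0.84 to 3.36; two-sided exact permutation p = 0.2). Crygd was higher in Trim9 KO under each of the 14 alternatives that gave it a value, with a log2 fold change between 0.66 and 1.94, although 2 of its WT readings were under the pseudocount of 16 and hold little information.

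**Figure D3:**
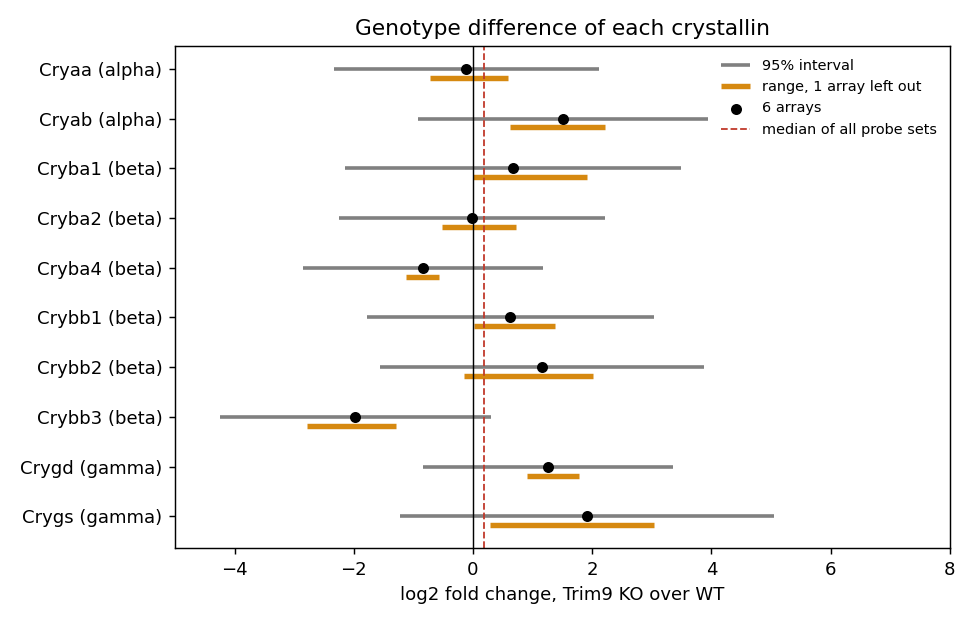
Log2 fold change of each crystallin, Trim9 KO over WT (points), with its 95% interval (grey) and the range when each array was left out in turn (orange), beside the median of all probe sets (dashed, 0.18). Every 95% interval includes 0, and the orange ranges of Cryab, Cryba1, Cryba4, Crybb1, Crybb3, Crygd and Crygs stay on 1 side of it.

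Counted together, 6 of the 10 crystallins were higher and 4 lower in Trim9 KO retinas, with a median log2 fold change of 0.65, beside 0.18 over all probe sets. With all array medians made equal these values were 0.33 and -0.14, and after quantile normalization 0.51 and 0.015. Of the 10, 0 passed an adjusted p of 0.05, as did 0 of the 45037 probe sets (0%), and 0 passed an unadjusted p of 0.05, which 2.56% of genes did. In 0 of the 10 did the genotypes separate, whereas all KO arrays lay above all WT arrays in 5.35% of genes and below them in 2.89%. By class the median was 0.70 for the 2 alpha crystallins, 0.31 for the 6 beta and 1.59 for the 2 gamma crystallins. The beta median turned negative under 5 alternatives (lowest -0.20). The order of the class medians, gamma, alpha and beta, changed with array weights, where alpha was at 0.90 and gamma at 0.87, and with probe sets averaged by gene, where alpha was at 0.02 and beta at 0.31.

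The 9 crystallins other than Cryab gave 54 readings. Of these, 4 were above the median of their array, and 2 reached the 75th percentile, Crygs on KO 1 and Crybb2 on KO 2. The other pair above the median were Crybb3 on WT 1, at the 65.8th percentile, and on WT 2, at the 63.1st. Another 4 readings were under an intensity of 16. Detection calls were not used here, so whether a dim probe set was above its background is not known.

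**Figure D4:**
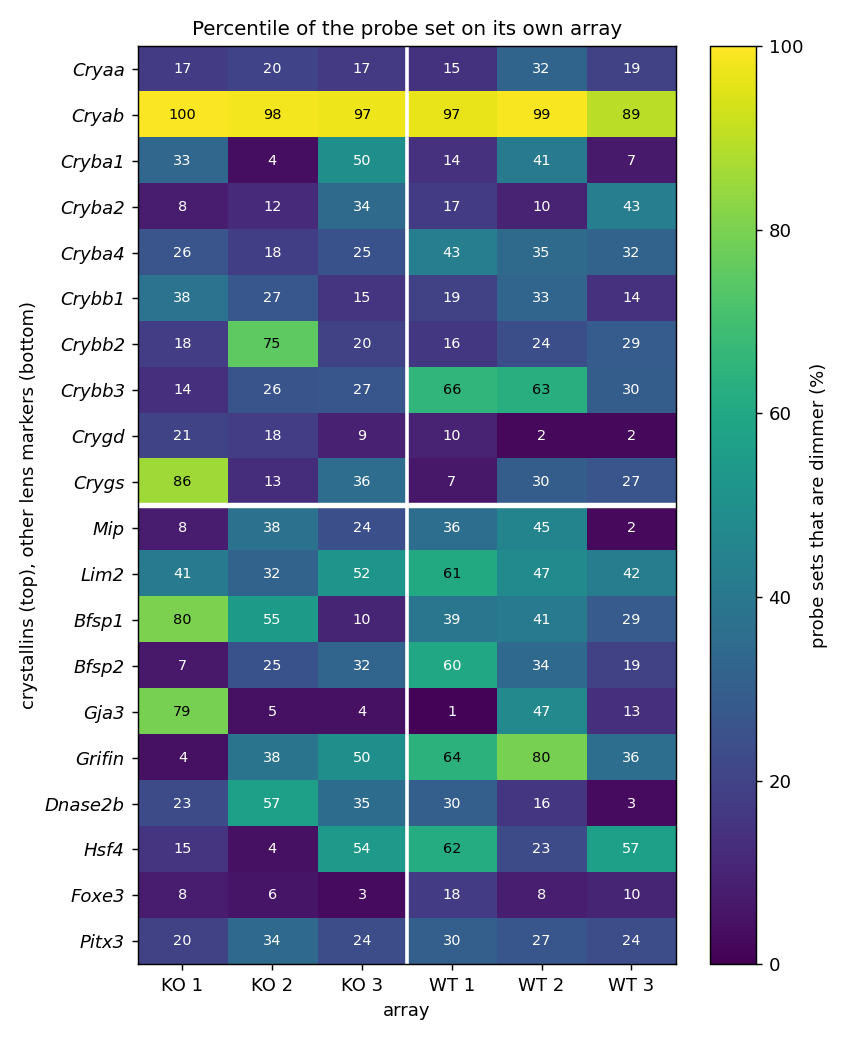
Percentile of each main probe set on its own array (cell values, in % of probe sets that were dimmer), crystallins on top and other lens markers at the bottom, KO arrays left of WT arrays. Cryab is at 89.5 or more everywhere, and the other crystallins and the lens markers are mostly under 50, with single high cells on different arrays.

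The crystallins as a group followed the brightness of the array. With each gene centered on its mean over the 6 arrays, the mean of the 10 was 0.88, 0.09 and -0.33 on KO 1, 2 and 3, against -0.87, 0.84 and -0.60 on WT 1, 2 and 3 (log2 units). The median of all probe sets, centered in the same way, was 0.96, 0.17 and -0.65 on the KO arrays, against -0.85, 0.71 and -0.34 on the WT arrays. The 2 sets of values differed by at most 0.32, on KO 3, and both were high on KO 1 and WT 2. Of the 10, 4 crystallins had their highest intensity on KO 1 and 4 on WT 2, but by percentile 4 were highest on KO 1 and 1 on WT 2.

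**Figure D5:**
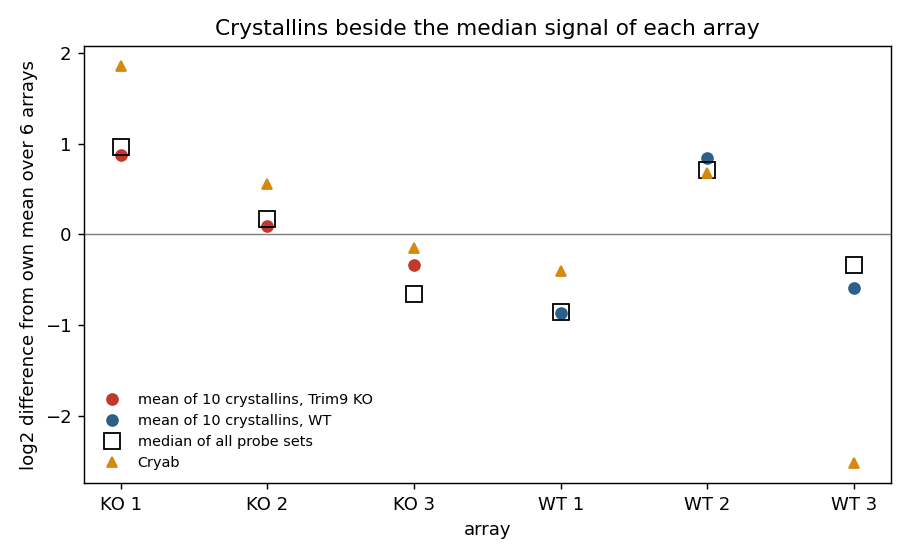
Log2 difference from the own mean over the 6 arrays, for the mean of the 10 crystallins (red for Trim9 KO, blue for WT), the median of all probe sets (open squares) and Cryab alone (triangles). The crystallin mean and the array median lie within 0.32 of each other on every array, while Cryab lies over both on KO 1 (1.86) and far under both on WT 3 (-2.53).

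The 5 genes outside the family whose pattern over the 6 arrays was most like the crystallin mean were A830018L16Rik, Lhx4, Ucp3, Zranb3 and Exoc6b. Likeness was the root mean square difference of the centered log2 values among 12055 genes brighter than the median, and it was 0.10 to 0.17 log2 units. Being chosen by this likeness, all 5 were highest on KO 1 and WT 2, as the crystallin mean and the array medians were. Lhx4, a homeobox gene, read 2804, 1543 and 1006 on the KO arrays, against 864, 3039 and 870 on the WT arrays.

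Lens genes other than the crystallins were dim too. Of 14 lens markers, 10 had a probe set of their own, and 1 of these, Lim2, a membrane protein of lens fibers, had a mean above the median of all probe sets. Mip, the water channel of lens fibers and a defining lens gene, read 56.2, 276 and 66.1 on the KO arrays, against 111, 531 and 6.49 on the WT arrays. Lim2 read 380, 197 and 271 on the KO arrays, against 362, 589.6 and 215 on the WT arrays, so that both overlapped between genotypes. Across the 10 markers 5 were higher and 5 lower in Trim9 KO retinas, with a median log2 fold change of -0.05.

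The beaded filament genes of the lens fiber, Bfsp1 and Bfsp2, had log2 fold changes of 0.85 and -0.86. Bfsp1 was highest on KO 1, with 2345, 538 and 21.7 on the KO arrays, against 130.5, 426 and 113 on the WT arrays. It was at the 80.3rd percentile on KO 1 and the 54.5th on KO 2, and under the median of the other arrays. Gja3, a connexin of lens fibers, was likewise high on KO 1, with 2264, 21.5 and 10.7 on the KO arrays, against 3.14, 581 and 33.6 on the WT arrays. Other lens genes went the other way on KO 1, where Bfsp2 (54.4) and Grifin (47.6) had their lowest values. Grifin, a lens galectin, was highest on WT 2, with 47.6, 288 and 251 on the KO arrays, against 441, 1919 and 163 on the WT arrays (log2 fold change -1.65).

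Dnase2b, the nuclease that degrades the nuclei of lens fibers, was the 1 lens marker whose genotypes separated. It read 119.8, 577 and 133 on the KO arrays, against 75.6, 72.1 and 7.62 on the WT arrays (log2 fold change 1.99, two-sided exact permutation p = 0.1). Over all genes, all KO arrays lay above all WT arrays in 5.35% and below them in 2.89%. Hsf4, a heat shock factor of the lens, had a log2 fold change of -1.52, and those of the transcription factors Foxe3 and Pitx3 were -0.15 and 0.20. After quantile normalization Dnase2b overlapped between genotypes, with WT 1 above KO 1. The KO arrays of Foxe3, which was dim throughout, then lay under its WT arrays, as held for 3.47% of genes.

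Summed over the markers, the lens signal was 5499, 2294 and 1234 on the KO arrays, against 1956, 4672 and 1163 on the WT arrays. The sum of the 9 crystallins without Cryab was 3992, 1812 and 796 on the KO arrays, against 781, 2543 and 814 on the WT arrays. Both sums were highest on KO 1 and next on WT 2, which were also the arrays with the highest median over all probe sets. On KO 1 the sums rested on few genes, Bfsp1 and Gja3 among the lens markers and Crygs (2931) among the crystallins. The median of the 10 lens markers was 87.7, 214 and 90.4 on the KO arrays, against 121, 339 and 72.9 on the WT arrays, and by percentile 2 of the 10 were highest on KO 1 and 4 on WT 1. The part of lens RNA, or of array brightness, in the crystallin readings was not tested.

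Other genes that carry a crystallin name were read for comparison, and 11 of 13 had a probe set of their own. The enzyme-like members have been recruited as crystallins by the vertebrate lens of some species. The means of their main probe sets lay well above the median of all probe sets. Cryz, a quinone reductase, read 845, 18683 and 14225 on the KO arrays, against 8307, 6373 and 3965 on the WT arrays. Crym, a ketimine reductase that binds thyroid hormone, read 2740, 1865 and 4328 on the KO arrays, against 5777, 1856 and 5959 on the WT arrays. Cryz had its lowest value on KO 1 and Crym overlapped between genotypes, with log2 fold changes of 0.04 and -0.51. Cryzl1, a relative of Cryz, and Cryl1 had 0.24 and -1.13 by their main probe sets. The other probe sets of Cryzl1 had 0.15, -0.63 and -2.03, and those of Cryl1 had 1.48, 0.82 and 1.11.

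Among the gamma crystallins of that list, Crygb was the 1 gene whose genotypes separated. It read 1977, 679 and 428 on the KO arrays, against 399.6, 195 and 212 on the WT arrays (log2 fold change 1.65, standard error 0.98; two-sided exact permutation p = 0.1). Over all genes, all KO arrays lay above all WT arrays in 5.35% and below them in 2.89%. After quantile normalization the genotypes of Crygb overlapped, since WT 1 then passed KO 2 and KO 3. A probe set that names both Crygc and Crygb read 3170.3, 23.9 and 237 on the KO arrays, against 9.73, 1138 and 132 on the WT arrays, and thus overlapped. Gamma crystallin genes are near copies of each other, so that probe sets may read more than 1 of them.

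The other gamma crystallins Cryga, Crygf and Crygn had log2 fold changes of 0.35, -0.14 and 0.15. Crybg1, Crybg2 and Crybg3, larger proteins that contain beta and gamma crystallin domains, had 1.01, -0.06 and 1.61. Over the 11 genes, 7 were higher and 4 lower in Trim9 KO retinas with a median of 0.15, near that of all probe sets, and this median had the other sign in 4 alternatives.

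Genes related to the crystallins by function or control did not pass the test either. Of 13 small heat shock and other chaperone genes 9 were higher and 4 lower with a median of 0.67, or 0.089 with probe sets averaged by gene. Hspa1a, the inducible Hsp70, read 29882, 23816 and 16955 on the KO arrays, against 12936, 10220.2 and 4683 on the WT arrays. All KO lay above all WT, as in 5.35% of genes (log2 fold change 1.43, two-sided exact permutation p = 0.1). Hspb7, of the small heat shock family to which the alpha crystallins belong, had 1.34. Of 8 transcription factors that act at crystallin promoters 3 were higher and 5 lower with a median of -0.21, which turned positive in 5 alternatives (0.65 without KO 3). The 2 that differed most were Sox1 (2.30), which was 1953 on KO 1 and at most 157 on the other 5 arrays, and Hsf4.

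Markers of other tissues and of retinal stress were read on the same arrays. Of 10 genes of the retinal injury response 9 had higher means with a median of 0.90. With equal array medians 6 were higher and 4 lower (median 0.58), and without WT 2 the median was 0.56. Gfap, the intermediate filament of reactive Müller glia and astrocytes, read 1741, 2598 and 1043 on the KO arrays, against 672, 82.1 and 293 on the WT arrays. All KO lay above all WT, as in 5.35% of genes (log2 fold change 2.62, adjusted p = 0.999 by limma). Fgf2, a growth factor that injury induces, had 1.56. Of 12 markers of the retinal pigment epithelium 11 were higher (median 0.84), and over all genes 10037 of 18193 were higher. Mlana, a melanosome protein, had 2.59, and Ttr, a thyroid hormone carrier, had 1.70. By percentile 8 of the 12 were highest on KO 3 and 4 on KO 1. Rpe65 read 1560.5, 1337 and 9968 on the KO arrays, against 1290, 1888 and 1839 on the WT arrays. The 6 cornea markers were all higher (median 0.60), with 2.29 and 1.60 for the keratins Krt5 and Krt14, and the 5 blood markers were all higher (median 0.87), with 1.80 for Slc4a1 and 1.18 for Hba-a2. With equal array medians 10 of 12 pigment epithelium, 4 of 6 cornea and 3 of 5 blood markers were higher (medians 0.51, 0.27 and 0.55). As each array was left out, the median ran from 0.26 to 1.40 for blood, lowest without WT 1, from 0.40 to 1.04 for cornea, highest without WT 2, and from 0.55 to 1.49 for the pigment epithelium, highest without KO 2.

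Of 12 Müller glia markers 10 had lower means (median -0.44), with -3.02 for the lipid carrier Apoe and -1.46 for Dkk3. Without KO 1, and with array weights, 6 were higher and 6 lower (medians -0.05 and -0.14). Apoe read 432, 131 and 11.9 on the KO arrays, against 34.9, 1274 and 14982 on the WT arrays, so its genotypes overlapped. Of 12 rod markers 9 had lower means (median -0.56), with -1.35 for the arrestin Sag and 1.11 for Gngt1, and this median ran from -1.14 to -0.14 as each array was left out. Of 9 ganglion cell markers 5 had higher means (median 0.20), with -3.55 for the neurofilament Nefm and 1.73 for the transcription factor Pou4f1. The median was negative in 9 of the 15 alternatives, lowest at -0.34 without KO 1. All these values are means of 3 arrays against 3, none passed an adjusted p of 0.05, and the part of these tissues and cells in the crystallin readings was not tested.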

How the data were processed

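RNA of 3 Trim9 KO and 3 WT adult retina samples was read on Affymetrix mouse arrays, and all 6 arrays were used. The deposited table holds linear intensities, which the authors had set to an equal trimmed mean on each array. The submitters' notes name MAS5, while the study's methods state RMA. RMA gives log2 values with equal distributions, so these values were taken as MAS5 signals. Scanner files were not used here, and depth has no meaning for arrays, whose number limits the precision.

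Of 45101 probe sets, 64 controls were left out. Values were taken as log2(intensity + 16) and compared with limma 3.58.1 (lmFit, eBayes) in R 4.3.3, without a block. P-values were adjusted over 45037 probe sets after Benjamini and Hochberg (threshold 0.05). Exact permutation tests over the arrays were two-sided. Fold changes of dim probe sets are understated on this scale. A gene was read by the brightest probe set naming it alone (34945 probe sets named 1 gene, 932 several and 9160 none). The annotation of the array was matched by gene number to RefSeq (GRCm38.p6) for all 10 members. The fit was tested on simulated data.

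All 10 crystallins, the genes with a crystallin name, the lens markers, the 2 genes with the largest limma statistic in each other list and the 5 genes most like the crystallin mean were named. Members and lists were chosen with earlier results of these data known. Genes singled out for quantile-normalized values were chosen after these were seen. Alternatives tried were a replicate block, array weights, a trended and robust prior in limma, arrays brought to equal medians or quantile-normalized, pseudocounts of 1 and 64, dim probe sets left out, probe sets averaged by gene, and each array left out in turn. Tables and figures were made with Python 3.11.15, pandas 2.3.3 and matplotlib 3.10.9.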

Additional observations from a re-analysis of the deposited data

How the results depend on the processing

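No crystallin and no probe set passed the adjusted threshold under any of the 15 alternatives. Cryab, Cryba1, Cryba4, Crybb1, Crybb3, Crygd and Crygs kept their sign in all alternatives that gave them a value. The log2 fold change of Cryaa turned to 0.083 with array weights and ran from -0.72 to 0.58 as each array was left out. That of Cryba2 turned to 0.055 with a pseudocount of 1 and ran from -0.52 to 0.72, and that of Crybb2 ran from -0.14 to 2.01. The median of the members was 0.17 to 1.41 as each array was left out, and 1.50 without dim probe sets, where Cryab alone was left. The widest difference of the 10 was that of Crybb3 with all arrays, of Crygs with a pseudocount of 1 (2.28) and without KO 2 (3.03), KO 3 (2.42) or WT 2 (2.51), and of Crybb2 with array weights (2.40). The medians turned negative in 5 alternatives for the beta crystallins and positive in 3 for the lens markers.

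Unadjusted p-values under 0.05 numbered 901 higher and 395 lower of 45037 probe sets. They numbered 1991 and 1646 with array weights, 2040 and 516 without KO 3, 309 and 323 of 22518 without dim probe sets, and 564 and 790 with equal array medians. With the replicate number as a block they numbered 582 and 282, 0 passed the adjusted threshold, and the unadjusted limma p of Crybb3 was 0.106. Whether the numbers pair littermates was not given in the sources used here. The deviations of same-numbered arrays correlated at -0.23, -0.081 and 0.033. So few arrays, with so wide a spread, cannot show whether the samples were paired. The unadjusted limma p of Crybb3 was 0.0824 with all arrays, 0.032 without WT 3 and 0.0437 after quantile normalization.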
